A study of Mus musculus with 48 samples.

Results

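Integrins are the cell's receptors for the extracellular matrix, each made of 1 alpha and 1 beta subunit, and 8 subunit genes are described here in single cells of the early mouse embryo: the alpha subunits Itga3, Itga5, Itga6, Itga7 and Itgav and the beta subunits Itgb1, Itgb3 and Itgb5. They were taken by name from the 49671 genes of the count table, which also holds 19 other integrin subunit genes. The cells are 48 inner cell mass (ICM) cells at E3.75, the stage at which precursors of the epiblast (pEPI) and of the primitive endoderm (pPrE) are mixed within the ICM. The question put to the data was which alpha and which beta subunits the cells of each lineage carry as mRNA. Protein, surface display and heterodimer assembly were not measured.

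All 48 cells are of 1 kind by their labels, and their titles read WT. The titles do not name the reporter allele described next. The embryos came from natural matings between mice with the targeted PDGFRa::H2B-GFP/+ reporter, a nuclear fluorescent protein expressed from the Pdgfra locus, and F1 hybrids of C57BL/6J and CBA/J. Trophectoderm was removed by immunosurgery, the ICMs were dissociated with Accutase and trypsin, and each cell was made into a library by Smart-seq2, a full-length method without molecular identifiers. According to the methods the cells came from 3 blastocysts picked for GFP in a scattered pattern, but no label ties a cell to its embryo. The 48 cells were therefore treated as 1 sample, no test took cells as replicates, and every SD below is a spread between cells.

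The lineage of a cell was taken from the study's dendrogram of these same cells, read by eye, which gave 25 pEPI and 23 pPrE cells. That dendrogram was built from variable genes of this table, so a difference between the branches is a description. Of 6 pEPI markers, 5 were at least 2-fold higher in pEPI, among them Nanog at -2.85 as the log2 of its mean FPKM in pPrE over that in pEPI, and the remaining 1, Tdgf1, was at -0.86. All 6 pPrE markers were at least 2-fold higher in pPrE, among them Gata4 at 3.33. A sorting of the cells by the marker lists alone placed 44 of the 48 cells on the side of their branch. All 21 cells on the pEPI side were pEPI by the dendrogram, and 23 of the 27 on the pPrE side were pPrE. The mismatched cells were thus all pEPI cells on the pPrE side. The marker levels come from the same table as the dendrogram, so this match is not a separate check of the branches. Summed levels of 6 trophectoderm markers spanned 2.71 to 173 FPKM in pEPI cells and 0.256 to 104 FPKM in pPrE cells. The medians of these sums were 31 and 32.3. Of the 6, Krt8 had the highest mean, at 34.3 FPKM over the 48 cells, with reads in 46 of them. Eomes had reads in 22 cells, Krt18 in 13, Gata3 in 9 and Elf5 in 5. Cdx2, the defining trophectoderm factor, was counted in 2 pEPI cells and 1 pPrE cell. Libraries held 1718970 to 7342785 counts. Y-linked genes, taken as at least 100 reads over 4 genes, were counted in 29 cells (17 pEPI, 12 pPrE) and not in 19 (8 pEPI, 11 pPrE). The first had 242 to 1298 such reads and the second 0 or 1, with no cell in between. Each branch ratio was also taken within each of these kinds of cells. The kinds went with the letters of the wells. All wells of letters A, B and E had Y-linked counts, all of letter D were without, and letters C and F held both kinds. Leaving out a letter therefore also changes the mix of kinds, and the 2 checks are not separate.

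The alpha subunit, together with its beta partner, sets which ligand an integrin binds. Itga3, Itga6 and Itga7 belong to the laminin-binding group, and Itga5 and Itgav to the group that binds the RGD motif of fibronectin, vitronectin and related proteins. Itgb1 is the common beta partner of all 5 of these alpha subunits, and Itgb3 and Itgb5 pair with Itgav. In the blastocyst, laminin and its integrin receptors are known for the basement membrane that forms between the primitive endoderm and the epiblast, and loss of Itgb1 is known to stop development of the inner cell mass around implantation.

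On the GRCm38 assembly, Itgb1 lies on chr8:128685654-128733200 (+), Itgb5 on chr16:33829665-33949338 (+) and Itgb3 on chr11:104608000-104670476 (+). Itga5 lies on chr15:103344286-103366763 (-), Itga7 on chr10:128933818-128958282 (+) and Itga3 on chr11:95044474-95076801 (-). Itga6 at chr2:71745616-71858416 (+) and Itgav at chr2:83724397-83806916 (+) share a chromosome. The promoters of the beta subunit counted in every cell and of the one that differed most between the branches are given here as the 250 bases before the RefSeq start (GRCm38.p6, read on the gene's strand, 5′ to 3′), at chr8:128685404-128685653 (+) and chr16:33829415-33829664 (+). Capitals mark GC boxes, the letters GGGCGG searched on both strands.
Itgb1 promoter: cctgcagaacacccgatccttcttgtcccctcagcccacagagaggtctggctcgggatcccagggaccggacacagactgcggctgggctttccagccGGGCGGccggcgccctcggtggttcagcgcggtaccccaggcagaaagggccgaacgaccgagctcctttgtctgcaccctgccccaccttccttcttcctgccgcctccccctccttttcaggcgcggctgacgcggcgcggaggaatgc
Itgb5 promoter: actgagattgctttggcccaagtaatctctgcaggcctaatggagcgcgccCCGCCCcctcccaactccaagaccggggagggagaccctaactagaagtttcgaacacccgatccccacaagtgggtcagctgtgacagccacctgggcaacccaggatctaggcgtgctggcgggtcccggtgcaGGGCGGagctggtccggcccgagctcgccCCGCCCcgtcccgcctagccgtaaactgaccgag

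The Itgb1 window held 1 GC box and 21 CpG dinucleotides, and the Itgb5 window held 3 GC boxes and 18 CpG dinucleotides. Neither held TATAAA on either strand. Over 32851 RefSeq promoters of the same length, 32.7% held at least 1 GC box and 12.4% held TATAAA, and the median was 6 CpG dinucleotides. By these letters both beta subunits have CpG-rich promoters without that TATA sequence. Of the 8 members, 5 were in the promoter table; Itga6, Itga7 and Itgb3 were not.

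Across the 48 cells the mRNA of the 8 members was dominated by 1 beta and 2 alpha subunits. Outside the members, Itgb7 had a mean of 6.70 FPKM, near that of Itga6, and is described below. Mean levels per exon length, in FPKM, were 39.8 ± 16.6 for Itgb1, 14.4 ± 8.15 for Itga5, 6.97 ± 4.71 for Itga6, 3.32 ± 4.2 for Itga3, 1.78 ± 1.84 for Itgav, 1.73 ± 2.82 for Itgb5, 0.418 ± 0.905 for Itga7 and 0.12 ± 0.627 for Itgb3 (SD over 48 cells). Itgb1 exceeded Itga5 in 46 of 48 cells, and this was the only neighbouring pair whose means were further apart than the larger SD when all cells were taken. Itga5 exceeded Itga6 in 36 cells and Itga6 exceeded Itga3 in 41, with gaps within the SD over all cells. Within the pPrE cells alone both gaps were slightly larger than the larger SD, with Itga6 above Itga3 in 22 of 23 cells. The neighbours below Itga3 in the order, down to Itgb3, were not separated beyond their spread in either branch or over all cells. The order between genes rests on the length used, here the exon union. It is 9025 bases for Itga6 against 3378 coding bases, and 4933 against 3178 for Itga5. For Itgav it is 10744 against 3132, and for Itga3 5710 against 3455. Coding lengths would thus raise Itga6 relative to Itga5 and Itgav relative to Itga3, and no order by coding length is given here. Itgb1 stood at the 93.2 percentile of mean FPKM among 21858 genes with a count, Itga5 at the 84.9, Itga6 at the 76.4, and Itgb3 at the 22.7.

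**Figure D1:**
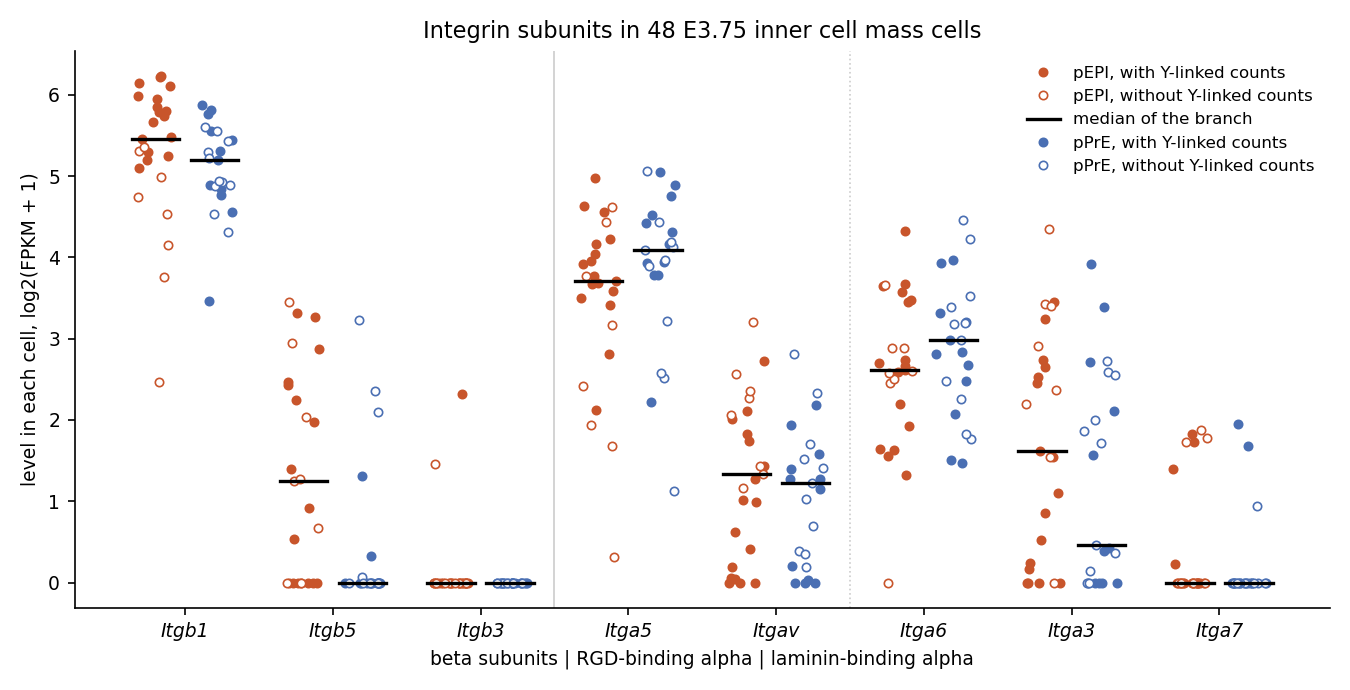
Level of each integrin subunit in each of 48 cells, as log2(FPKM + 1), with the beta subunits, the RGD-binding alpha subunits and the laminin-binding alpha subunits from left to right; each point is a cell, filled where Y-linked genes were counted, and the bars are medians over 25 pEPI and 23 pPrE cells. Itgb1 has the highest median in both branches, Itga5 and Itga6 form broad bands in both branches, and Itgb5, Itgb3 and Itga7 are at 0 in most or many cells.

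Between the branches the beta subunit Itgb5 had the largest ratio, and no alpha subunit with a mean of at least 1 FPKM reached 2-fold when all cells were taken. Of the 6 members with a mean of at least 1 FPKM (all except Itga7 and Itgb3), 1 was at least 2-fold higher in pEPI, beside 9.03% of all 10880 genes at that level, and 0 were at least 2-fold higher in pPrE, beside 6.20% of genes. The median log2 ratio of the 6 was -0.40, and that of all genes was 0.002. Every difference between branch means was smaller than the larger SD between cells; the ones nearest to it were Itgb5 at 0.581 SD and Itgb1 at 0.453 SD.

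Itgb1, the shared beta subunit, was counted in all 48 cells. Its level in pEPI cells ran from 4.52 over a median of 42.7 to 74.1 FPKM, with a mean of 43.9 ± 19 (SD, n = 25). In pPrE cells it ran from 10.1 over a median of 35.6 to 57.5 FPKM, with a mean of 35.3 ± 12.3 (SD, n = 23). The pPrE range lay inside the pEPI range, so that both the highest and the lowest cells were pEPI. The log2 ratio was -0.32, with a 95% counting interval of -0.35 to -0.28 from 17967 and 14625 reads. This direction turned with the kind of cell. In cells with Y-linked counts the mean was 53.4 FPKM in pEPI and 37 in pPrE, a log2 ratio of -0.53, and in cells without them it was 23.9 and 33.4 FPKM, a log2 ratio of 0.49.

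Within pEPI the kinds of cells nearly separated by Itgb1. The 17 pEPI cells with Y-linked counts ran from 33.3 over a median of 54.4 to 74.1 FPKM, and the 8 without ran from 4.52 over a median of 23.9 to 40.2 FPKM. The log2 ratio of the second over the first was -1.16, and 12.7% of the 10880 genes were likewise at least 2-fold lower in those 8 cells. In pPrE the same ratio was -0.15, with ranges of 10.1 to 57.5 and 18.9 to 47.5 FPKM. Median library totals were 4067245 counts in the 17 cells and 3717308 in the 8. Which embryo a cell came from and its kind cannot be told apart, and an opposite direction in the kinds of cells was frequent: it was found for Itgb1 and Itga3 among the 6 members, and for 41.4% of the 10880 genes.

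Itga5, the alpha subunit of the main fibronectin receptor, was counted in every cell. In pEPI it ran from 0.245 over a median of 12.1 to 30.6 FPKM (mean 12.8 ± 7.60, SD, n = 25), and in pPrE from 1.19 over a median of 16 to 32.3 FPKM (mean 16.2 ± 8.51, SD, n = 23). The branches overlapped across the whole range. The log2 ratio was 0.35 (95% counting interval 0.30 to 0.40), and it was 0.37 in cells with Y-linked counts and 0.56 in cells without. It stayed above 0 when any single cell was left out of either kind.

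Itgav, the alpha subunit of the vitronectin receptors, was low and patchy. It had reads in 22 of 25 pEPI cells and 20 of 23 pPrE cells. Its highest values were 8.19 FPKM in pEPI and 6.03 in pPrE, around medians of 1.52 and 1.34 and means of 2.07 ± 2.08 (SD, n = 25) and 1.47 ± 1.52 (SD, n = 23). The log2 ratio of -0.49 (95% counting interval -0.59 to -0.40) was -0.19 in cells with Y-linked counts and -1.01 in cells without. It was -0.30 without the pEPI cell C3, -0.13 without the wells of letter C and -0.79 without those of letter E. In cells with Y-linked counts it turned to 0.12 without the pEPI cell B2. Of the 8 pEPI cells without Y-linked counts all had Itgav reads, with a median of 3.50 FPKM against 0.983 in the 17 pEPI cells with them.

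Itga6 is the alpha subunit of a laminin receptor that is also a common marker of pluripotent stem cells. It was counted in 24 of 25 pEPI cells and all 23 pPrE cells. The pEPI cells spanned 0 to 19 FPKM with a median of 5.12 (mean 6.30 ± 4.32, SD, n = 25), and the pPrE cells spanned 1.77 to 21.1 FPKM with a median of 6.90 (mean 7.70 ± 5.10, SD, n = 23). The log2 ratio was 0.29 (95% counting interval 0.24 to 0.34). The pPrE cell F7 held 18.9% of the pPrE reads, and without it the ratio was 0.17. Leaving out the wells of letter C gave 0.15 and those of letter E 0.49. The ratio was 0.67 in cells without Y-linked counts and 0.02 in cells with them, where it changed sign on leaving out any of 10 single cells.

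Itga3, another laminin receptor subunit, was the most uneven of the well-detected alpha subunits, with an SD above its mean. It was counted in 20 of 25 pEPI cells and 16 of 23 pPrE cells. The median was 2.08 FPKM in pEPI and 0.377 in pPrE, the highest cells reached 19.4 and 14.1, and the means were 4.01 ± 4.66 (SD, n = 25) and 2.57 ± 3.58 (SD, n = 23). The log2 ratio of -0.64 (95% counting interval -0.73 to -0.55) rested partly on single cells: it was -0.39 without the highest pEPI cell and -0.97 without the highest pPrE cell, and it was -1.05 without the wells of letter B and -0.36 without those of letter C. It was 0.13 in cells with Y-linked counts, or -0.49 without the pPrE cell E8, and -1.65 in cells without, where the pEPI mean was 6.87 FPKM and the pPrE mean 2.20.

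Itga7, the laminin-binding alpha subunit best known from muscle, was near the floor. It was counted in 7 of 25 pEPI cells and 3 of 23 pPrE cells and never passed 2.85 FPKM. Its means were 0.564 and 0.260 FPKM, from 468 and 183 reads, and the highest pPrE cell held 58.5% of the pPrE reads. The log2 ratio was -1.12 (95% counting interval -1.37 to -0.87), at 0.10 in cells with Y-linked counts and -3.47 in cells without, so no direction can be given to it.

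Itgb5, a beta partner of Itgav, was the member with the largest ratio. It was counted in 16 of 25 pEPI cells (64.0%, 95% Clopper-Pearson interval 42.5 to 82.0) and in 6 of 23 pPrE cells (26.1%, 10.2 to 48.4). These binomial intervals take each cell as an independent draw and hold no part for variation from embryo to embryo. The numbers were the same 16 and 6 after every cell was thinned to the smallest total, and were 15 and 4 when at least 10 reads were asked for. Levels in pEPI ran from 0 over a median of 1.38 to 9.92 FPKM, with a mean of 2.62 ± 3.20 (SD, n = 25). In pPrE the median was 0 and the mean 0.765 ± 1.99 (SD, n = 23), and 1 cell, at 8.40 FPKM, held 43% of the 279 pPrE reads. Most pPrE cells were thus at 0 while the pEPI cells were spread from 0 upward. Of all pairs of 1 pEPI and 1 pPrE cell, the pEPI cell was higher in 57.9%, the pPrE cell in 15.5%, and 26.6% were equal.

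The Itgb5 log2 ratio was -1.78 (95% counting interval -1.98 to -1.58), or 3.43-fold higher in pEPI. Leaving out the highest pPrE cell took it to -2.65, and leaving out the highest pEPI cell to -1.60. Without the wells of letter D it was -2.72. It kept its direction in both kinds of cells, at -4.11 with Y-linked counts and -1.001 without. The first value rests on 12 and 5 reads in 2 pPrE cells. The second was -0.38 without the pEPI cell D4 and -1.95 without the pPrE cell D2. In the first kind 10 of 17 pEPI cells and 2 of 12 pPrE cells had a read, and in the second 6 of 8 and 4 of 11.

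Itgb3, the other beta partner of Itgav and a subunit best known from platelets, was counted in 2 cells only, both pEPI, at 4.01 and 1.76 FPKM from 132 reads in all. It was found in 0 of 23 pPrE cells, which allows a share of up to 13% by a limit of 3 cells, with a Clopper-Pearson upper bound of 14.8%. With 2 cells holding all its reads, no branch difference was shown for Itgb3.

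**Figure D2:**
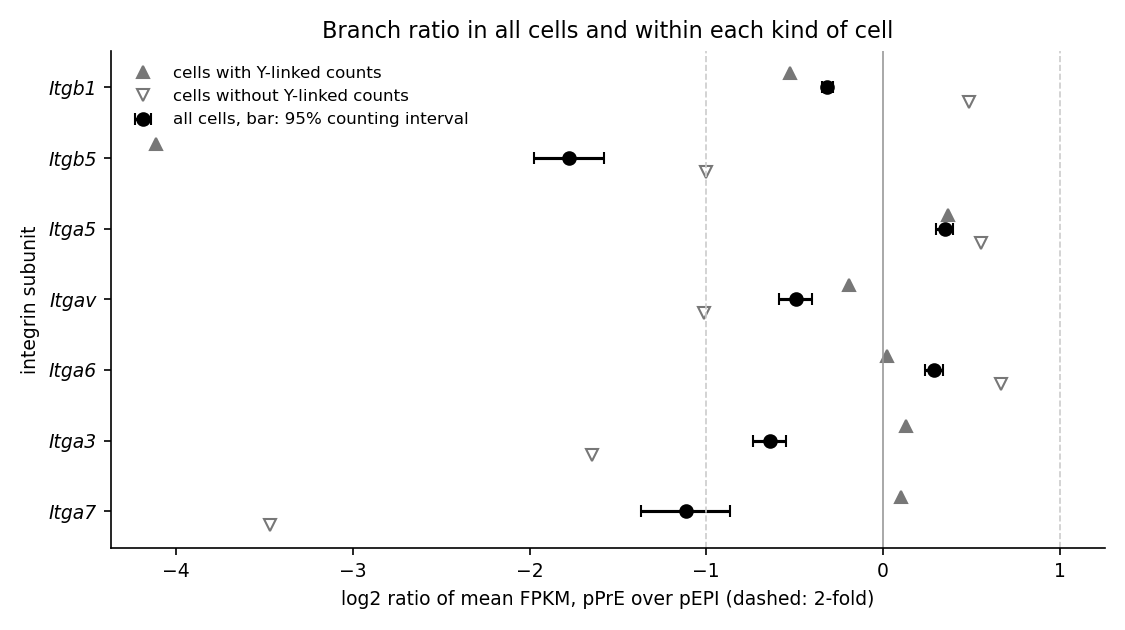
Log2 ratio of mean FPKM in pPrE over pEPI for 7 integrin subunits (Itgb3 has no pPrE read): black points are all 48 cells with the 95% counting interval, and triangles are the ratio within cells with (filled) or without (open) Y-linked counts. Itgb5, Itgav, Itga5 and Itga6 keep their side of 0 in both kinds of cells, while Itgb1, Itga3 and Itga7 lie on both sides; the values of Itgav and Itga6 with Y-linked counts, -0.19 and 0.02, change sign on leaving out a single cell.

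Taken per cell, the make-up of the alpha subunits was mixed in both branches. The 5 alpha subunits summed to 25.7 ± 9.68 FPKM in pEPI cells (SD, n = 25) and 28.2 ± 10.8 in pPrE cells (SD, n = 23). Itga5 was the most abundant alpha subunit in 35 of 48 cells (18 pEPI, 17 pPrE), Itga6 in 11 (5 pEPI, 6 pPrE) and Itga3 in 2, both pEPI. At 1 FPKM or more, 10 cells held 2 different alpha subunits, 16 held 3, 19 held 4 and 3 held all 5. No cell therefore carried a single alpha subunit. The most abundant subunit of a cell and the shares below hold for FPKM by exon union. In the pEPI cell A3, with 252 Itga6 and 150 Itga5 reads, Itga5 led by exon union and Itga6 would lead by coding length.

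The laminin-binding subunits held 42.9 ± 20.4% of the alpha sum in pEPI cells (SD, n = 25) and 37.1 ± 19% in pPrE cells (SD, n = 23). The branch difference of 5.72 percentage points was smaller than the spread in either branch, where single pEPI cells took values of 0 to 78.3% and single pPrE cells 6.87 to 72.1%. In cells with Y-linked counts the shares were 38.1 and 32.5%, and in cells without 52.9 and 42.2%, so the pEPI mean was the higher in both kinds. The difference moved when single well letters were left out, to -0.82 points without letter E and -10.5 without letter B. Both letters hold only cells with Y-linked counts, so these values also reflect a changed mix of kinds. The RGD-binding Itga5 alone took from 1.56 to 87.4% of the alpha sum of a cell.

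**Figure D3:**
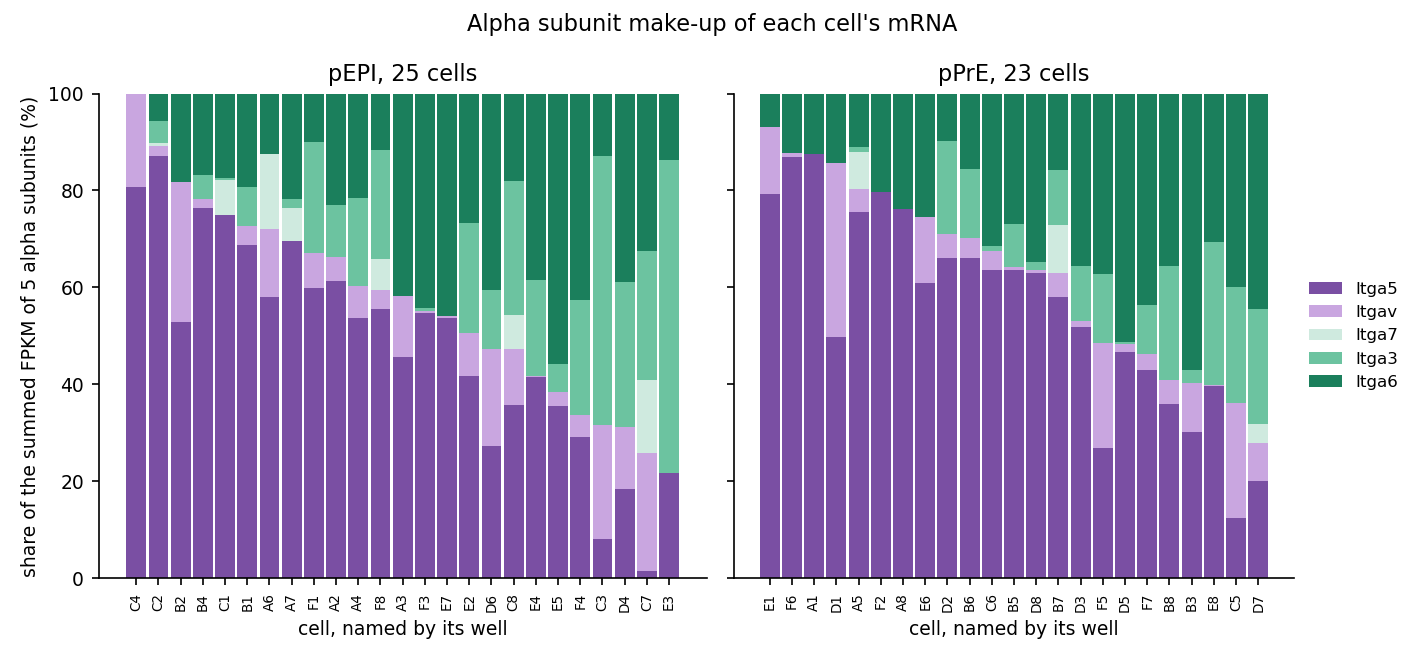
Share of each of 5 alpha subunits in their summed FPKM, 1 bar per cell, with 25 pEPI cells on the left and 23 pPrE cells on the right, each ordered by the share of the laminin-binding subunits (green). Both branches run from cells dominated by Itga5 (dark purple) to cells in which Itga6 and Itga3 take most of the sum.

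On the beta side, Itgb1 made up 93.1 ± 9.72% of the 3 beta subunits' FPKM in pEPI cells (SD, n = 25) and 97.8 ± 6.14% in pPrE cells (SD, n = 23). Itgb7, which is not a member, was left out of this sum. In the pEPI cell D4, which had the highest Itgb5, the share was 55.8%, the lowest of all. Summed alpha mRNA was above Itgb1 mRNA in 3 of 25 pEPI and 7 of 23 pPrE cells. The mean log2 ratio of the alpha sum to Itgb1 was -0.67 ± 1.12 in pEPI (SD, n = 25) and -0.34 ± 0.86 in pPrE (SD, n = 23). The order of the branches turned with the kind of cell, as it did for Itgb1: -1.11 in pEPI and -0.28 in pPrE with Y-linked counts, and 0.26 and -0.40 without. The value of 0.26 rested on the pEPI cell F8: the other 7 cells averaged -0.16, with 6 of them below 0, and the branch difference went from -0.66 to -0.24 without it. The highest ratios were those of F8 in pEPI, at 3.23, and E8 in pPrE, at 2.24, which also had the lowest Itgb1 of their branches.

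For known heterodimers, both partners had to be present in the same cell. Every cell had Itgb1 at 1 FPKM or more, so every alpha subunit at that level had the mRNA of its beta partner in the same cell. Itga5 and Itgb1 were both at 1 FPKM or more in 47 of 48 cells, as were Itga6 and Itgb1, and Itga3 and Itgb1 in 27. Itgav and Itgb5 were both at that level in 10 of 25 pEPI and 4 of 23 pPrE cells. A further 6 pEPI and 10 pPrE cells had Itgav without Itgb5, and 3 pEPI cells had Itgb5 without Itgav. Itgav and Itgb3 met in 2 cells.

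Among pairs of members, Itgav and Itgb5 had a Spearman correlation of 0.43 over the 48 cells, 0.43 within pEPI and 0.43 within pPrE. Itga7 and Itgb3 also stood at 0.43, which comes from the 2 cells with Itgb3. Over the 48 cells Itga5 had negative values with Itgb5 at -0.35 and with Itgav at -0.32, and Itga3 had -0.27 with Itgb1. Within the branches, Itga3 and Itgb1 stood at -0.40 in pEPI and -0.26 in pPrE. Itgav and Itgb1 stood at -0.49 in pEPI and 0.15 in pPrE. These are descriptions of 48 cells that share embryos and, through zeros, library sensitivity. Correlations of the members with the total count of a library lay between -0.08 and 0.17 over all cells. Within the branches they were wider, down to -0.44 for Itga6 in pEPI and up to 0.41 for Itgb1 in pPrE.

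The genes whose levels ran most like a member's were looked up for the 5 members counted in at least 24 cells, by Spearman correlation over the 48 cells among 6082 or 6083 genes with a mean of at least 5 FPKM. Itgav ran most like Lgals3, which encodes the secreted lectin galectin-3, at 0.59, with 0.79 within pEPI and 0.30 within pPrE, and then like Ufl1 and Dnajb6. Itgb1 ran most like Gulo at 0.58, the lysosomal protease gene Ctsd at 0.58 and the autophagy receptor gene Sqstm1 at 0.58. The nearest genes were Itpk1, Qdpr and Nxt1 for Itga3, Stard3, Fam219b and Nop9 for Itga5, and Ttc5, Dhdds and Gpbp1 for Itga6, at 0.46 to 0.53. The lowest correlation found for each of the 5 members was between -0.57 and -0.49, of about the same size. Itgb5, with reads in 22 cells, Itga7 and Itgb3 were too sparse for this.

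Of the 19 other integrin subunit genes, 9 had no read in any cell and only Itgb7 had a mean of at least 1 FPKM over all cells. Itgb7, a beta subunit known from lymphocytes, had reads in 17 of the 25 pEPI cells and in 14 of the 23 pPrE cells. Its lowest, median and highest levels were 0, 6.45 and 26.5 FPKM in pEPI and 0, 2.06 and 17.8 FPKM in pPrE. The means were 8.83 ± 9.52 (SD, n = 25) and 4.38 ± 5.26 (SD, n = 23), a log2 ratio of -1.01 (95% counting interval -1.12 to -0.91), at -0.83 and -1.09 in the kinds of cells with and without Y-linked counts. By its mean Itgb7 mRNA thus ranked second among the beta subunits, above Itgb5, in both branches.

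The known alpha partners of Itgb7 were scarce. Itga4 reached 1 FPKM in no cell, while Itgae did so together with Itgb7 in 7 cells, and 21 cells had Itgb7 at that level without Itgae. Itgae means were 0.957 FPKM in pEPI and 0.996 in pPrE. Its value is uncertain, because the gene Haspin lies within it and the counting could give reads of the one to the other. Itgb4, the other partner of Itga6, was counted in 3 pEPI and 4 pPrE cells.

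Several ligands differed more between the branches than any integrin subunit among the members. Of 21 matrix genes looked up, 4 had no read and 13 had a mean of at least 1 FPKM, and of these 6 were at least 2-fold higher in pPrE, beside 6.20% of all genes, and 2 in pEPI, beside 9.03%. The laminin chain Lama1 was at 3.01 ± 4.18 FPKM in pEPI (SD, n = 25) and 31.2 ± 18.6 in pPrE (SD, n = 23), a log2 ratio of 3.38. Its partner chains Lamb1 and Lamc1 had log2 ratios of 1.95 and 2.28, and the basement membrane collagen Col4a2 had 2.30. For these 4 genes the branch difference was larger than the larger SD between cells, which held for no integrin member. Each also kept its direction in both kinds of cells.

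Fn1, the fibronectin gene and the ligand of the receptor formed with Itga5, pointed the other way. It ran from 6.87 over a median of 21.1 to 59.2 FPKM in pEPI (mean 26.8 ± 16.4, SD, n = 25) and from 4.05 over a median of 10.1 to 50.5 FPKM in pPrE (mean 13.2 ± 10.03, SD, n = 23). The log2 ratio was -1.03 (95% counting interval -1.05 to -0.999), within the SD between cells. Itga5 itself was at 0.35, so the means of the ligand and of the receptor's alpha subunit leaned to opposite branches. The beta subunit of that receptor, Itgb1, was at -0.32, on the side of Fn1, but at 0.49 in cells without Y-linked counts. The RGD-bearing ligand Spp1, osteopontin, was the most abundant at 1675 ± 690 FPKM in pEPI (SD, n = 25) and 1332 ± 541 in pPrE (SD, n = 23), a log2 ratio of -0.33. The laminin chain Lama5 was at 13.3 ± 6.88 and 8.65 ± 4.72 FPKM, a log2 ratio of -0.62.

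Of 25 genes that activate integrins or link their tails to actin, 19 had a mean of at least 1 FPKM, of which 3 were at least 2-fold higher in pEPI and 1 in pPrE, beside 9.03% and 6.20% of all genes. These counts are near the shares of all genes. Lims1, which encodes the adaptor PINCH1 that binds integrin-linked kinase, was at 8.85 ± 6.08 FPKM in pEPI (SD, n = 25) and 3.79 ± 2.47 in pPrE (SD, n = 23), a log2 ratio of -1.22. Parvb, a parvin of the same complex, was at 2.85 ± 2.74 and 5.72 ± 4.08 FPKM, a log2 ratio of 1.00. Ilk, the kinase-like scaffold to which both bind, was at 3.17 and 3.15 FPKM, a log2 ratio of -0.01. All 3 differences were smaller than the larger SD between cells.

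Of 9 lateral partners, membrane proteins that associate with integrins, 6 had a mean of at least 1 FPKM, 0 were at least 2-fold higher in pEPI and 1 in pPrE, again beside 9.03% and 6.20%. Of 5 other laminin receptors, 4 had such a mean, and 1 was at least 2-fold higher in each branch, beside the same 9.03% and 6.20%. Dag1, the dystroglycan gene, was at 12.6 ± 7.27 FPKM in pEPI (SD, n = 25) and 5.59 ± 4.397 in pPrE (SD, n = 23), a log2 ratio of -1.18. The heparan sulphate proteoglycan gene Sdc4 was at 81.0 ± 62.9 and 322 ± 109 FPKM, a log2 ratio of 1.99 and a difference of 2.22 times the larger SD. Sdc4 was at 99.2 to 501 FPKM in the 23 pPrE cells and 0.189 to 210 FPKM in the 25 pEPI cells.

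**Figure D4:**
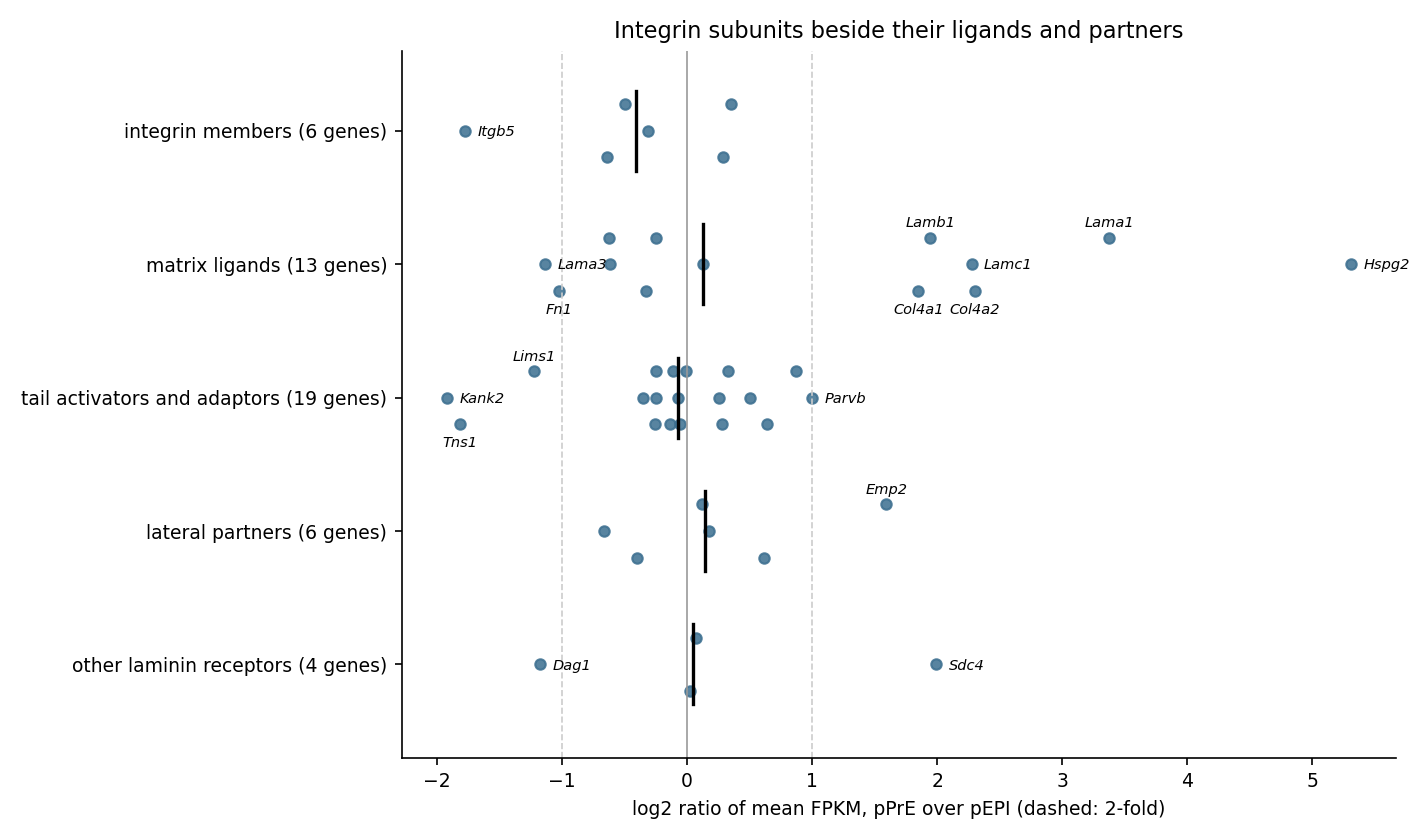
Log2 ratio of mean FPKM, pPrE over pEPI, for the genes with a mean of at least 1 FPKM in 5 lists; each point is a gene, the black bar is the median of the list, and genes at 2-fold or more (dashed lines) are named. The 6 integrin members lie between -1.78 and 0.35, while 6 of the 13 matrix ligands lie beyond 2-fold on the pPrE side.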

How the data were processed

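Single ICM cells of E3.75 mouse embryos were profiled by Smart-seq2, and the data hold 48 cells. The authors deposited whole-number counts per Ensembl gene without normalization. Per the methods, alignments to mm10 were counted with htseq-count on Ensembl 87 genes, and libraries with fewer than 500000 mapped reads, with skewed gene-body coverage or apart by PCA were removed. The submitters' processing notes name STAR and HTSeq, without versions.

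FPKM was computed here from those counts, with the exon union of each gene in GENCODE M21 (GRCm38) and library sizes by the median of ratios. A total of 49412 genes had a length. Because the cells form 1 sample, no p-value was computed and a call is a ratio of means past 2-fold among genes with a mean of at least 1 FPKM. Intervals of 95% are Clopper-Pearson for shares. For log2 ratios the interval has the width of the exact interval of the summed counts and is placed around the ratio of means. It leaves out everything but counting error, and PCR copies of a molecule, which carry no identifier here, were counted as separate reads. The log scale used a pseudocount of 1. Y-linked counts means at least 100 over 4 genes.

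The members, the lists and the well split were chosen with earlier results of these data known. Named were all members, other subunits with a mean of at least 1 FPKM in a branch, up to 4 genes a direction per list past 2-fold and at 5 FPKM or more in the higher branch, markers, and the 3 genes most like each member. Spp1, Lama5, Ilk, Itga4, Itgb4 and Haspin were added as ligand, partner or overlapping genes after their values were seen, as were the names beyond that rule in the plot of ligands and partners. The steps were tested on simulated data. The alternatives, 20 in all and 3 more added after the data were seen, are treated below. All steps ran under Python 3.11.15 with scipy 1.17.1, pandas 2.3.3 and numpy 2.4.6, and plots were drawn with matplotlib 3.10.9. The authors' test between cells was not repeated, since cells are not replicates.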

Additional observations from a re-analysis of the deposited data

How the results depend on the processing

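The log2 ratios of Itga5, Itga6, Itgav and Itgb5 kept their sign under every alternative that gave a ratio, single cells left out within a kind of cell aside, with ranges of 0.23 to 0.56, 0.02 to 0.67, -1.01 to -0.13 and -4.11 to -0.91. For Itgb5 the medians of 1.38 FPKM in pEPI and 0 in pPrE gave no finite ratio, and for Itga7 both medians were 0. Itgb1 ranged from -0.53 to 0.49 and Itga3 from -2.47 (medians over cells) to 0.13, each changing sign in 1 alternative, the split by Y-linked counts. Itga7 reversed to 0.10 in cells with Y-linked counts alone. The number of members past 2-fold was 1. It was 2 with medians over cells (Itga3, and Itgb5 with its pPrE median of 0). In cells without Y-linked counts it was 3 (Itga3, Itgav and Itgb5). With no filter on low genes it was 3 of 8. At a mean of at least 5 FPKM, where the filter leaves out Itgb5, it was 0 of 3. Leaving out the wells of 1 letter at a time gave 1 to 2, with 2 without letter B. Without a filter 23.3% of genes were at least 2-fold higher in pEPI and 19.2% in pPrE, and at 5 FPKM 4.93% and 3.06%. No such share is given for medians, within a kind of cell or without a letter. The numbers of members under those settings thus stand without a background and cannot be read as a rise. The branch difference of the laminin-binding share stayed below 0, from -10.7 to -0.82 percentage points, and that of the log2 ratio of alpha sum to Itgb1 ranged from -0.66 (cells without Y-linked counts) to 0.83. Library size by total count and thinning changed no sign of a log2 ratio. Gene length cancels in the ratio of 1 gene and library size in a share within a cell, so coding exons could not move the former nor library size the latter. With coding exons the branch difference was -3.68 percentage points for the laminin-binding share and 0.32 for the log2 ratio of alpha sum to Itgb1. The order of the subunits and the leading alpha subunit are given by exon union only. After the data were seen, 3 single cells were left out of the cells without Y-linked counts: Itgb5 was -0.38 without D4 and -1.95 without D2, and without F8 Itgb1 was 0.33 and the alpha ratio -0.24. The cause of the changes was not tested. No paired analysis was possible because the cells carry no group label and no replicate number shared between groups. With 1 sample, neither embryos nor plates give an error for the branch differences. After thinning, Itgb3 was still counted in 2 of 2 cells and Itga7 in 9 of 10.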
